A study of Mus musculus with 8 samples.

Results

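The genes described are long intergenic non-coding RNA (lincRNA) genes that were expressed in mouse haemogenic endothelium, the endothelium from which early blood cells emerge. They are the autosomal rows that the deposited count table annotates as lincRNA and that had at least 1 CPM (the count scaled to the library's total) in at least 2 of 8 libraries. The imprinted genes H19, Meg3, Rian, Mirg, Airn and Kcnq1ot1 were left out by name, and 3 rows with those names had passed the level rule. This gave 124 of 2215 autosomal lincRNA rows, 2769 lincRNA rows in all and 41128 genes in the table. The genes were thus chosen by their CPM in the same libraries that are compared below, so being detected is not a result. All 124 also passed the low-count filter of the test.

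The cells were differentiated from embryonic stem (ES) cells of strain C57BL/6, which all groups share. The Hdac2 lox/lox line was labelled with 4OHT (4-hydroxytamoxifen, a ligand commonly used to activate tamoxifen-dependent Cre recombinase) or with EtOH (ethanol, its solvent), and the Hdac1 lox/lox line with 4OHT or with EtOH. Each of these 4 groups held 2 libraries, and the comparison in each line addresses deletion of Hdac2 or of Hdac1, which encode class I histone deacetylases. The labels give no Cre driver, no clone number and no age in days of the cultures, and 4OHT-treated cells without lox sites were not analysed here. No label says that the libraries of a group came from separate cultures, so p-values measure the spread between these libraries, which may be technical.

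LincRNA genes are transcribed by RNA polymerase II into spliced, usually polyadenylated transcripts without a long open reading frame. Many start at or near the promoter of a protein-coding gene, and their levels are typically low and specific to a cell type. Some act as scaffolds of nuclear bodies, some host small nucleolar RNAs (snoRNAs) or microRNAs in their introns, and for many no function is known. Histone deacetylases HDAC1 and HDAC2 remove acetyl groups from histones as subunits of several co-repressor complexes.

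Total counts ran between 10215792 and 19552380 per library, so that 3 counts, the floor used here, correspond to 0.15 to 0.287 CPM. The counts of Hdac2 were 149 and 149 CPM in Hdac2 lox/lox 4OHT and 165 and 151 CPM in Hdac2 lox/lox EtOH. Those of Hdac1 were 6.99 and 7.12 CPM in Hdac1 lox/lox 4OHT and 5.78 and 5.60 CPM in Hdac1 lox/lox EtOH. In the Hdac2 line, Hdac1 was at 5.12 and 4.00 CPM with 4OHT and at 7.45 and 7.16 CPM with EtOH. The Hdac1 row can miss reads that also match other sequences, and the part of such reads was not tested. The sequence of Gm10093, a row on chromosome 17, was not compared with Hdac1 here. This row stood at 110 and 115 CPM in Hdac1 4OHT and at 146 and 125 CPM in Hdac1 EtOH. It was also lower with 4OHT in the Hdac2 line, at 110 and 109 CPM against 156 and 134 CPM with EtOH. Counts over whole genes also take in exons outside the floxed part, so they do not check the labels, and 4OHT stands below for what a library was labelled as. The 12 listed genes of haemogenic endothelium and endothelium were Cdh5, Pecam1, Kdr, Tek, Tie1, Emcn, Sox17, Erg, Kit, Runx1, Tal1 and Gfi1. All 12 were tested. Their summed level was 6070 to 7970 CPM in Hdac2 4OHT and 3010 to 3390 CPM in Hdac2 EtOH. In the Hdac1 line it was 4600 to 6110 CPM with 4OHT and 4280 to 5940 CPM with EtOH. In the Hdac2 line 7 of these 12 rose and 1 fell with 4OHT, beside 18.9% and 17.2% of all genes. The part of these 12 genes in the lincRNA values was not tested. In such bulk samples, fewer cells of a type and less RNA per cell cannot be told apart.

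Most of the 124 genes were near the lower limit of what the libraries can resolve. The mean over the 8 libraries, scaled by the trimmed mean of M-values (TMM), was 0.481 CPM for the lowest and 1177 CPM for the highest, with a median of 1.67 CPM. It was under 2 CPM for 68 genes, under 5 CPM for 98 and at least 20 CPM for 7. The level rule was met in all 8 libraries by 53 genes and in exactly 2 libraries by 15, of which 6 met it in both libraries of 1 group. At the edge of the rule, D130020L05Rik, 6230400D17Rik and 2610020C07Rik were just inside with a second-highest library of 1.02, 1.05 and 1.05 CPM. The rows 6430562O15Rik, Gm16861 and 6030443J06Rik were just outside with 0.990, 0.979 and 0.972 CPM.

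Yam1 had the highest mean CPM of the 124 rows and, in both Hdac2 EtOH libraries and 1 Hdac1 4OHT library, more counts than all the other lincRNA genes together. This row (chromosome 17, 39846958 to 39848788, plus strand, mm10; Gm42418 in GENCODE M21) took 0.0551 to 0.289% of all counts of a library. The 124 genes together took 0.136 to 0.361%, and without Yam1 0.0724 to 0.107%. In the mm10 assembly this row lies on the copy of the 45S pre-ribosomal RNA unit on that chromosome, so it may collect reads of pre-ribosomal RNA. Per kilobase of M21 exons, the mean level was 643 CPM for Yam1, 37.9 for 1810058I24Rik, 23.8 for 1700020I14Rik, 16.9 for C330006A16Rik, 11.8 for Gm14230, 9.00 for Malat1, 7.36 for the lincRNA row named Nav1 and 7.11 for 4933404O12Rik. The 10 highest rows by mean CPM also included Gm20204, which has no M21 entry, at 45.7 CPM, and B230354K17Rik at 3.24 CPM per kilobase.

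In the Hdac2 lox/lox line, 22 of the 124 lincRNA genes changed between 4OHT and EtOH, of which 12 rose and 10 fell with 4OHT (edgeR's quasi-likelihood test on all 8 libraries, Benjamini-Hochberg adjusted p under 0.05). The genes that rose were 2010300F17Rik, Gm16938, 4833412C05Rik, Gm16092, the Nav1 lincRNA row, Gm26834, Gm17354, Gm22, Gm16576, Gm20204, Gm10425 and Gm20645. The genes that fell were Haglr, RP23-190H11.5, the snoRNA hosts Snhg7, Snhg4 and Snhg18, Gm13652, Yam1, 2410019O14Rik, C330006A16Rik and 4933404O12Rik. All but 4933404O12Rik, or 21, differed by at least 2-fold, beside 21.3% of all genes called with such a fold. In each of the 22 the 2 groups did not overlap. A call with 2 libraries per group makes this likely, so it adds no support. Of the 22, 2 met the level rule only through the group in which they were high, Haglr through Hdac2 EtOH and Gm26834 through Hdac2 4OHT. Their difference is thus in part set by the rule. The same holds for 2010300F17Rik, which met the rule only through 4OHT libraries of the 2 lines.

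These 22 genes are 17.7% of the lincRNA genes, whereas 36.1% of the 14179 genes tested were called in this comparison (18.9% higher and 17.2% lower). At an unadjusted p under 0.05 there were 39, beside 49.6% of all genes. The share of lincRNA genes is below that of the whole table, in which the protein-coding genes had a median mean of 30.3 CPM. At matched levels the shares lay as follows. Below 1 CPM, 5 of 26 lincRNA genes were called, beside 14% of all genes at that level. From 1 to 2 CPM 8 of 42 were called, beside 19.7%, and from 2 to 5 CPM 4 of 30, beside 24.1%. From 5 to 20 CPM it was 1 of 19, beside 34.1%, and at 20 CPM or more 4 of 7, beside 43.8%. No test of these shares was made. The groups did not overlap for 85 of the 124 genes (68.5%), beside 78.3% of all genes. The median log2 fold change was 0.02 over the lincRNA genes and -0.02 over all genes, with the middle 50% of the lincRNA genes between -0.54 and 0.83. With upper quartile scaling, and likewise with no scaling beyond library size, 11 lincRNA genes rose and 14 fell, while the median of all genes moved to -0.15 and -0.14. Leaving out any 1 library of the Hdac2 line left at most 1 lincRNA gene called (C330006A16Rik, without the first 4OHT library) and 0 to 826 of all genes, whereas leaving out 1 library of the Hdac1 line left 20 to 30.

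**Figure D1:**
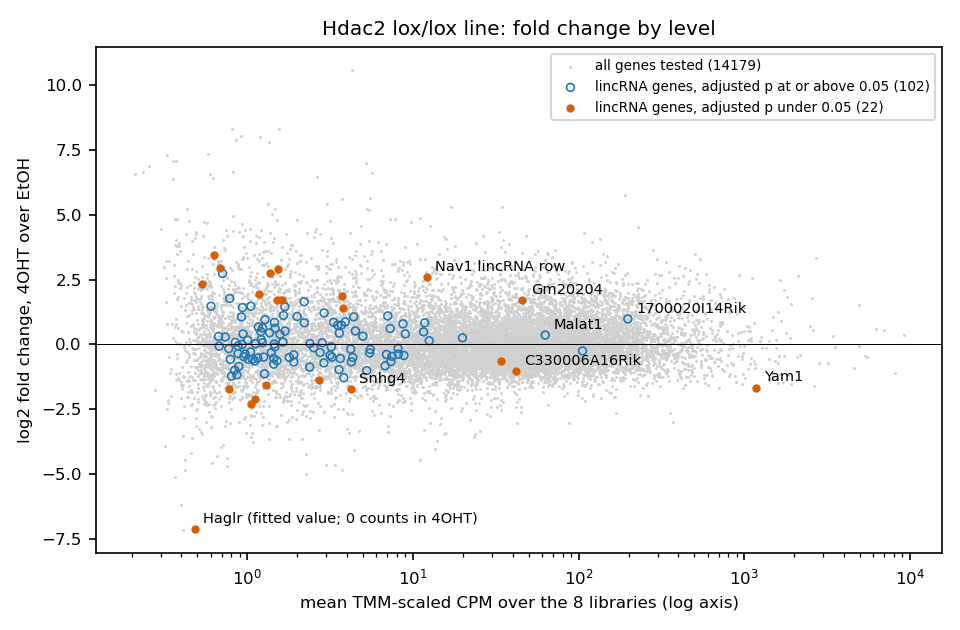
Log2 fold change of 4OHT over EtOH in the Hdac2 lox/lox line (vertical axis) against the mean TMM-scaled CPM over 8 libraries (horizontal log axis). Grey points are all 14179 genes tested, open circles the lincRNA genes that did not pass and filled circles the 22 that passed; most lincRNA genes lie below 5 CPM, and the fitted value of Haglr rests on a group with 0 counts.

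The lincRNA row named Nav1 had the highest fold change among called genes with a mean of at least 2 CPM. It stood at 18.6 and 22.3 CPM in Hdac2 4OHT and at 2.79 and 4.01 CPM in Hdac2 EtOH, so every 4OHT library was above every EtOH library (log2 fold change 2.60 ± 0.70 SE, adjusted p = 0.026). This row (chromosome 1, 135606447 to 135688105, minus strand; Gm38399 in M21) overlaps the protein-coding Nav1 row on the same strand by 849 bases. The protein-coding Nav1 averaged 302 ± 44.6 CPM in Hdac2 4OHT and 61.2 ± 4.49 CPM in Hdac2 EtOH (SD, n = 2 each), and passed the test (log2 fold change 2.30 ± 0.49 SE, adjusted p = 0.0151). Reads of the shared stretch cannot be assigned to either row.

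Gm20204 (chromosome 8, 117210778 to 117215997, plus strand), a predicted gene with no known role, was the most abundant gene that rose. It stood at 36.9 and 41.9 CPM in Hdac2 4OHT and at 9.59 and 14.6 CPM in Hdac2 EtOH (log2 fold change 1.71 ± 0.57 SE, adjusted p = 0.0484). The groups of the Hdac2 line were well apart, but the 2 Hdac1 EtOH libraries alone spanned 36.8 to 119 CPM. Gm22, which M21 lists as the lincRNA Zfp469, stood at 9.86 and 5.69 CPM in Hdac2 4OHT and at 2.85 and 1.34 CPM in Hdac2 EtOH (1.86 ± 0.61, adjusted p = 0.0482). Gm20645 had close replicates, with 5.82 and 5.95 CPM in Hdac2 4OHT and 2.07 and 2.39 CPM in Hdac2 EtOH (1.40 ± 0.34, adjusted p = 0.0201).

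The other 8 genes that rose averaged under 2 CPM over the 8 libraries and are named after their values were seen. Gm16092, 4833412C05Rik, Gm16576 and Gm10425 stood at 1.71 to 3.57 CPM in Hdac2 4OHT and at 0.0955 to 1.05 CPM in Hdac2 EtOH. Their log2 fold changes were 2.75 ± 0.62, 2.90 ± 0.60, 1.71 ± 0.41 and 1.69 ± 0.48 (SE). Gm17354 stood at 1.94 and 2.58 CPM in Hdac2 4OHT and at 0.907 and 0.191 CPM in Hdac2 EtOH. All of these rested on at most 78 counts per group.

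Counts were fewest for 3 genes that rose. 2010300F17Rik had 33 counts in Hdac2 4OHT and 3 counts in Hdac2 EtOH, a ratio of 11.8. The exact Poisson 95% interval of this ratio, 3.70 to 60.1, covers counting error only. 2010300F17Rik reached the level rule only through 4OHT libraries, of both lines, so its difference is in part set by the rule. Gm16938 had 16 counts in Hdac2 4OHT and 2 counts in Hdac2 EtOH, a ratio of 8.58 (2.02 to 77.0). For Gm26834 there were 42 counts in Hdac2 4OHT and 9 counts in Hdac2 EtOH, and in the Hdac1 line it had 1 count in 4OHT and 0 counts in EtOH. Gm26834 reached the level rule only through the 2 Hdac2 4OHT libraries, so its difference is a description.

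Among the genes that fell, C330006A16Rik (chromosome 2, 26136814 to 26140521, minus strand; Tmem250-ps in M21) had the smallest adjusted p. It stood at 33.5 and 31.8 CPM in Hdac2 4OHT and at 64.9 and 67.3 CPM in Hdac2 EtOH, with replicates close together in both groups (log2 fold change -1.02 ± 0.14 SE, adjusted p = 0.00853). A stretch of 257 of 420 bases of its transcript is identical to 1810012K08Rik, a row with 0 counts in these libraries. 4933404O12Rik stood at 20.1 and 26.7 CPM in Hdac2 4OHT and at 33.1 and 39.3 CPM in Hdac2 EtOH (-0.63 ± 0.19, adjusted p = 0.0361). The groups were close but did not overlap.

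Yam1 stood at 621 and 890 CPM in Hdac2 4OHT and at 2883 and 1917 CPM in Hdac2 EtOH (log2 fold change -1.67 ± 0.38 SE, adjusted p = 0.018). The 2 Hdac2 EtOH libraries were the highest of all 8, since the Hdac1 libraries spanned 525 to 1136 CPM. Gm26917, the row beside it on chromosome 17 (39845074 to 39846245), stood at 20.9 and 18.3 CPM in Hdac2 4OHT and at 116 and 65.4 CPM in Hdac2 EtOH (-2.21 ± 0.33, adjusted p = 0.00868). Both rows of this locus were highest in the 2 Hdac2 EtOH libraries. The Yam1 transcript is identical over 1244 bases to the M21 gene CT010467.1, which has no row of that name here. Whether CT010467.1 is a copy elsewhere or a gene overlapping the same locus was not checked. The part of pre-ribosomal RNA in the counts of Yam1 was not tested.

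Haglr, transcribed opposite to the Hoxd cluster, had 0 counts in both Hdac2 4OHT libraries and 30 counts in the 2 Hdac2 EtOH libraries (1.23 and 1.05 CPM). Against a floor of 3 counts over the group this is at least 9.32-fold lower. Haglr reached the level rule only through the 2 Hdac2 EtOH libraries, so this difference is a description. In the Hdac1 line Haglr was at 0.314 and 0.285 CPM with 4OHT and at 0.819 and 0.150 CPM with EtOH, so those groups overlapped. Its neighbour Hoxd1, a homeobox gene that starts 84 bases away on the other strand, stood at 2.56 and 2.31 CPM in Hdac2 4OHT and at 3.95 and 5.63 CPM in Hdac2 EtOH (log2 fold change -0.97 ± 0.34 SE, adjusted p = 0.0592). RP23-190H11.5 stood at 0.310 and 0.355 CPM in Hdac2 4OHT and at 1.10 and 2.29 CPM in Hdac2 EtOH, and Gm13652 at 0.466 and 0.178 CPM in Hdac2 4OHT and at 1.04 and 1.15 CPM in Hdac2 EtOH. Haglr, RP23-190H11.5, Gm13652, Snhg7 and 2410019O14Rik, all under 2 CPM on average, are named after their values were seen.

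**Figure D2:**
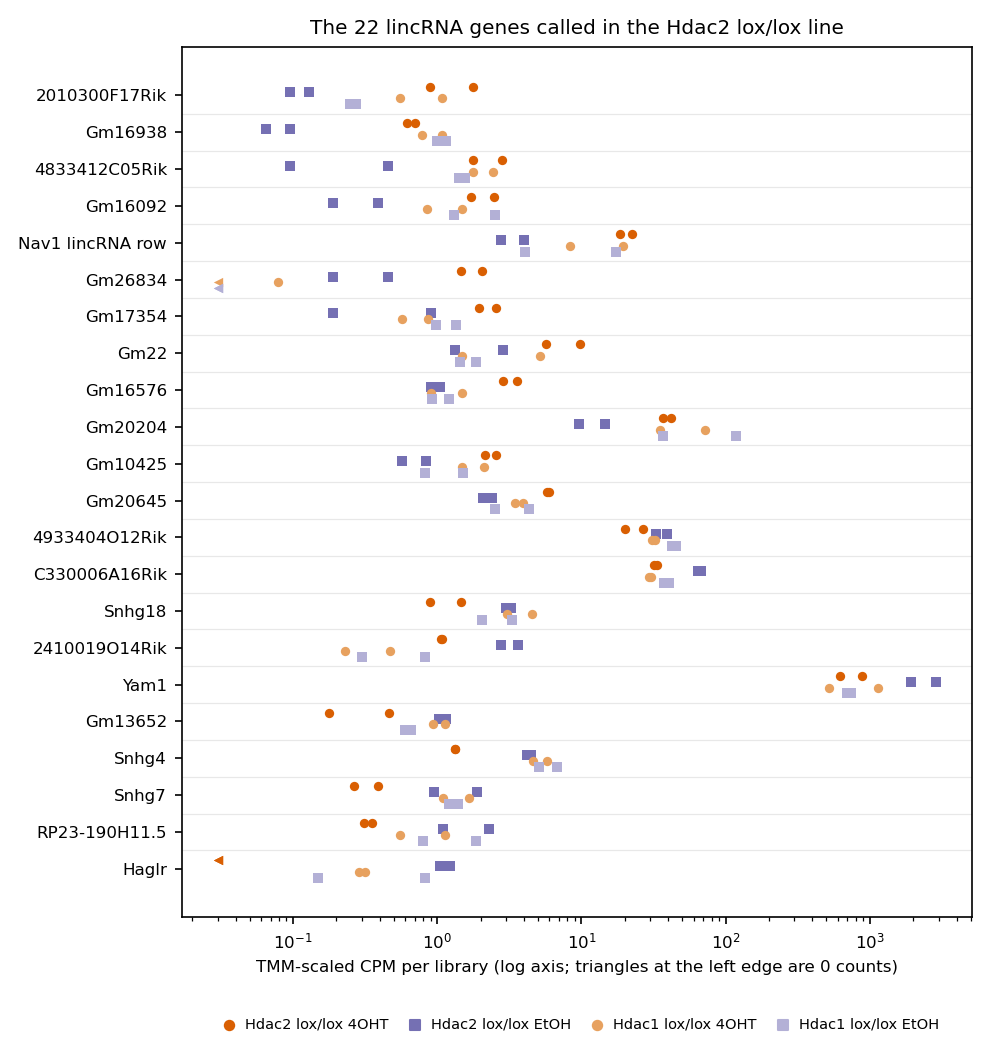
TMM-scaled CPM per library (horizontal log axis) of the 22 lincRNA genes called in the Hdac2 lox/lox line, ordered by log2 fold change, with circles for 4OHT and squares for EtOH and dark colours for the Hdac2 line. The Hdac2 4OHT and EtOH libraries are apart in every gene, which is likely for genes chosen by that comparison. The groups of the Hdac1 line, in pale colours, overlap in 9 of the 12 that rose and 7 of the 10 that fell (72.7%, beside 73.6% of all genes called in the Hdac2 line).

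Genes listed as markers of other cells also differed between the same libraries. The early blood genes (Itga2b, Gata1, Gfi1b, Klf1 and 3 embryonic globins) summed to 262 to 400 CPM in Hdac2 4OHT and 1710 to 1810 CPM in Hdac2 EtOH, and 5 of 7 fell. The smooth muscle and mesenchyme genes summed to 4120 to 6190 CPM in Hdac2 4OHT and 1420 to 2030 CPM in Hdac2 EtOH, and 3 of 5 rose. The macrophage and leukocyte genes summed to 41.6 to 51.1 CPM in Hdac2 4OHT and 8.21 to 18.1 CPM in Hdac2 EtOH, and 5 of 6 rose. For the cardiomyocyte genes the sums were 19.3 to 23.3 CPM in Hdac2 4OHT and 3.63 to 6.35 CPM in Hdac2 EtOH, and 2 of the 4 tested rose. For the visceral endoderm genes they were 130 to 145 CPM in Hdac2 4OHT and 58.4 to 85.4 CPM in Hdac2 EtOH. Nearly all of this came from Sox7, so the sum does not show that cell type, while Ttr was at 0 in both Hdac2 EtOH libraries. The pluripotency genes summed to 0.155 to 0.800 CPM in Hdac2 4OHT and 0.648 to 1.05 CPM in Hdac2 EtOH, with Pou5f1 at 0 in 1 library of each. These counts stand beside 18.9% of all genes called higher and 17.2% called lower. Which of these cells express the lincRNA genes was not tested.

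The snoRNA hosts release snoRNAs, which guide the chemical modification of ribosomal RNA, from their introns. The listed hosts held 8 of the 124 genes, of which Snhg4, Snhg7 and Snhg18 fell and none rose. Over all 19 tested hosts of the list, whatever their biotype in the table, 6 fell and none rose, with a median log2 fold change of -0.60, beside -0.02 over all genes. Of all genes tested, 17.2% were called lower and 18.9% higher.

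Snhg4 stood at 1.32 and 1.33 CPM in Hdac2 4OHT and at 4.21 and 4.49 CPM in Hdac2 EtOH, with little spread in either group (log2 fold change -1.71 ± 0.31 SE, adjusted p = 0.0114). The Hdac1 libraries were at 4.63 and 5.75 CPM with 4OHT and 6.82 and 5.05 CPM with EtOH, so the 2 Hdac2 4OHT libraries were the lowest of the 8. Snhg18 stood at 1.47 and 0.889 CPM in Hdac2 4OHT and at 2.98 and 3.25 CPM in Hdac2 EtOH (-1.38 ± 0.43, adjusted p = 0.0407). Snhg7 stood at 0.388 and 0.267 CPM in Hdac2 4OHT and at 1.88 and 0.955 CPM in Hdac2 EtOH (-2.10 ± 0.56, adjusted p = 0.0259). For both, the 4OHT libraries of the Hdac2 line were again the lowest of all 8. The identifier of the Snhg7 row belongs to Snora43, a snoRNA in its intron, in M21.

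The other 5 hosts did not pass the test. Snhg1 stood at 5.28 and 5.24 CPM in Hdac2 4OHT and at 6.94 and 6.69 CPM in Hdac2 EtOH (log2 fold change -0.37 ± 0.50 SE). Its 4 Hdac1 libraries spanned 5.34 to 15.4 CPM. The log2 fold changes of Snhg6, Snhg12, 2810008D09Rik (Snhg20 in M21) and 2410004N09Rik (Epb41l4aos in M21) were -0.40, -0.09, -0.63 and 1.06, each with an adjusted p of 0.186 or more.

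**Figure D3:**
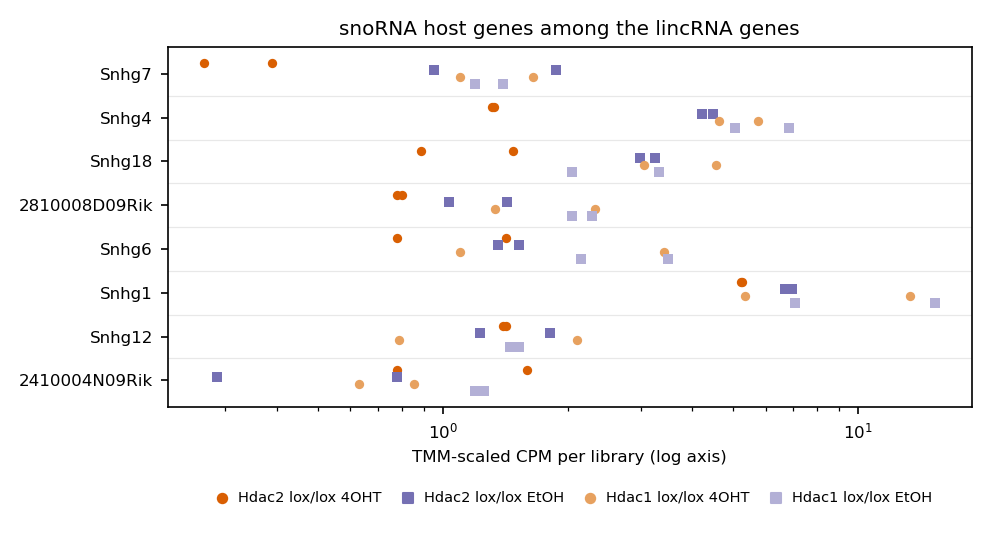
TMM-scaled CPM per library (horizontal log axis) of the 8 snoRNA host genes among the lincRNA genes, ordered by log2 fold change in the Hdac2 lox/lox line, with circles for 4OHT and squares for EtOH. Snhg7, Snhg4 and Snhg18 were lowest in the Hdac2 4OHT libraries, and Snhg1 and Snhg6 had widely spaced Hdac1 libraries.

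Nuclear and widely expressed lncRNAs held 5 of the 124 genes, of which only Yam1 fell. Malat1, a nuclear speckle RNA, stood at 45.2 and 84.0 CPM in Hdac2 4OHT and at 49.5 and 51.0 CPM in Hdac2 EtOH, and these groups overlapped (log2 fold change 0.36 ± 0.36 SE, adjusted p = 0.448). Neat1, the scaffold of paraspeckles, stood at 13.9 and 20.5 CPM in Hdac2 4OHT and at 12.2 and 6.97 CPM in Hdac2 EtOH (0.83 ± 0.43, adjusted p = 0.153). 1700020I14Rik, also known as Cyrano, which promotes the decay of the microRNA miR-7, stood at 245 and 299 CPM in Hdac2 4OHT and at 126 and 149 CPM in Hdac2 EtOH. Its groups were apart and it just missed the threshold (0.99 ± 0.34, adjusted p = 0.0558). Pvt1, the neighbour of Myc, differed by 1.21 ± 0.55 on the log2 scale (adjusted p = 0.114). Of the 9 tested genes of this list 2 fell and none rose, beside 17.2% lower and 18.9% higher of all genes. The 2 that fell were Yam1 and Gm26917, the adjacent rows of the chromosome 17 locus described above.

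Among blood lncRNAs, Pvt1 and Trp53cor1 (lincRNA-p21, a target of p53) were the only 2 of the 124 genes. Trp53cor1 stood at 4.42 and 3.47 CPM in Hdac2 4OHT and at 2.33 and 2.01 CPM in Hdac2 EtOH, apart but not past the threshold (log2 fold change 0.86 ± 0.32 SE, adjusted p = 0.0664), and 0 of the 5 tested genes of that list were called. A stretch of 1117 bases of a Trp53cor1 transcript is identical to another M21 gene. Whether that gene is a copy elsewhere or overlaps the same locus was not checked, so the counts of Trp53cor1 are uncertain. Heart, vessel and mesoderm lncRNAs held 2 of the 124 genes. Gm20748 (Braveheart, required for cardiac commitment of mouse ES cells) stood at 5.82 and 6.04 CPM in Hdac2 4OHT and at 6.16 and 3.25 CPM in Hdac2 EtOH, overlapping (0.32 ± 0.35, adjusted p = 0.492). 5330426P16Rik (Dubr, known from mouse myoblasts) stood at 14.2 and 8.53 CPM in Hdac2 4OHT and at 4.73 and 5.92 CPM in Hdac2 EtOH (1.10 ± 0.43, adjusted p = 0.0779). Of the 5 tested genes of that list, including other biotypes, 3 rose, beside 18.9% of all genes.

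Pluripotency lncRNAs also held 2 of the 124 genes. 2410019O14Rik (Platr27, a pluripotency-associated transcript) stood at 1.09 and 1.07 CPM in Hdac2 4OHT and at 3.63 and 2.77 CPM in Hdac2 EtOH, and it fell (log2 fold change -1.57 ± 0.52 SE, adjusted p = 0.0473). Lincenc1, which supports self-renewal of mouse ES cells, averaged 2.15 ± 0.0284 CPM in Hdac2 4OHT and 1.03 ± 0.169 CPM in Hdac2 EtOH (SD, n = 2 each; 1.08 ± 0.48, adjusted p = 0.107). Of the 5 tested genes of this list 2 fell, beside 17.2% of all genes.

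Mir17hg, which carries the miR-17-92 cluster, was the only listed microRNA host among the 124 genes. The counts measure the host transcript, not the mature microRNAs. It stood at 0.233 and 1.07 CPM in Hdac2 4OHT and at 0.778 and 1.24 CPM in Hdac2 EtOH (log2 fold change -0.64 ± 0.88 SE, adjusted p = 0.583). The 4OHT libraries of the Hdac2 line were far apart, and the groups overlapped. Of the 5 tested microRNA hosts of the list 1 rose and 1 fell, beside 18.9% and 17.2% of all genes. The cluster (6 hairpins, 11 mature microRNAs in RefSeq, GRCm38.p6, chromosome 14, plus strand) is shown to identify which microRNAs this transcript can give, with the seed, bases 2 to 8, in capitals. MiR-17-5p and miR-20a-5p share the seed AAAGUGC, and miR-19a-3p and miR-19b-3p share GUGCAAA.
miR-17-5p: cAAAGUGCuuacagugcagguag
miR-20a-5p: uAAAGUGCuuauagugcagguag
miR-18a-5p: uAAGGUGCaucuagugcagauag
miR-19a-3p: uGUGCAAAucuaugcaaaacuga
miR-19b-3p: uGUGCAAAuccaugcaaaacuga
miR-92a-3p: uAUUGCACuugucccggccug

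Because lincRNA genes often start beside protein-coding genes, the nearest tested protein-coding gene by annotated start was taken for each. A neighbour within 50000 bases was found for 103 of the 124 genes, and 51 of these pairs were divergent (the gene starts back to back). These pairs hold 102 distinct neighbours, of which 53 were called in the Hdac2 line, beside 37.4% of all protein-coding genes tested. The lincRNA gene was called in 18 pairs. The neighbour was called in 8 of these 18 pairs, beside 54 of all 103 pairs. In all 8 pairs with both called, both moved the same way, 7 up and 1 down. How often neighbouring genes in general moved the same way was not computed. Across the 103 pairs the log2 fold changes had a Pearson correlation of 0.370 and a Spearman correlation of 0.372. All pairs come from the same libraries and the same fit, so this is a description.

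Of the 8 pairs, Gm16576 and Sun2, a nuclear envelope gene, were the closest, with starts 162 bases apart. Sun2 averaged 80.7 ± 0.247 CPM in Hdac2 4OHT and 37.3 ± 7.69 CPM in Hdac2 EtOH (SD, n = 2 each; log2 fold change 1.11 ± 0.19 SE, adjusted p = 0.00997). Rel, an NF-kappaB subunit 30613 bases from Gm20645, averaged 5.14 ± 0.902 CPM in Hdac2 4OHT and 1.15 ± 0.258 CPM in Hdac2 EtOH (2.16 ± 0.48, adjusted p = 0.0161). Next to Gm20204, Cmip stood at 128 and 135 CPM in Hdac2 4OHT and at 72.7 and 70.7 CPM in Hdac2 EtOH (0.88 ± 0.16, adjusted p = 0.011). Each of these neighbours was higher in both 4OHT libraries. The other pairs that rose were the Nav1 lincRNA row with Csrp1, 4833412C05Rik with the intermediate filament gene Synm, Gm10425 with Tnfaip2 and Gm17354 with Cc2d1b, which it also overlaps. RP23-190H11.5 fell with Chchd4, a mitochondrial import gene, which averaged 35.7 ± 5.54 CPM in Hdac2 4OHT and 69.3 ± 3.58 CPM in Hdac2 EtOH.

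In the other 10 pairs with a called lincRNA gene the neighbour did not pass the test. Snhg18 fell, while Sema5a, which starts 151 bases away on the other strand, averaged 12.5 ± 3.02 CPM in Hdac2 4OHT and 9.39 ± 0.903 CPM in Hdac2 EtOH (SD, n = 2 each; log2 fold change 0.42 ± 0.25 SE, adjusted p = 0.202). Gm22 rose, while Zfpm1, a GATA1 cofactor 12572 bases away, stood at 177 and 166 CPM in Hdac2 4OHT and at 210 and 223 CPM in Hdac2 EtOH (-0.33 ± 0.19, adjusted p = 0.181). The values of Matr3 beside Snhg4, of Nacc2 beside C330006A16Rik and of Ift22 beside 4933404O12Rik were -0.28 ± 0.14, 1.00 ± 0.34 and -0.81 ± 0.30, with adjusted p of 0.155, 0.0505 and 0.0703. Yam1 had no such neighbour within 50000 bases.

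**Figure D4:**
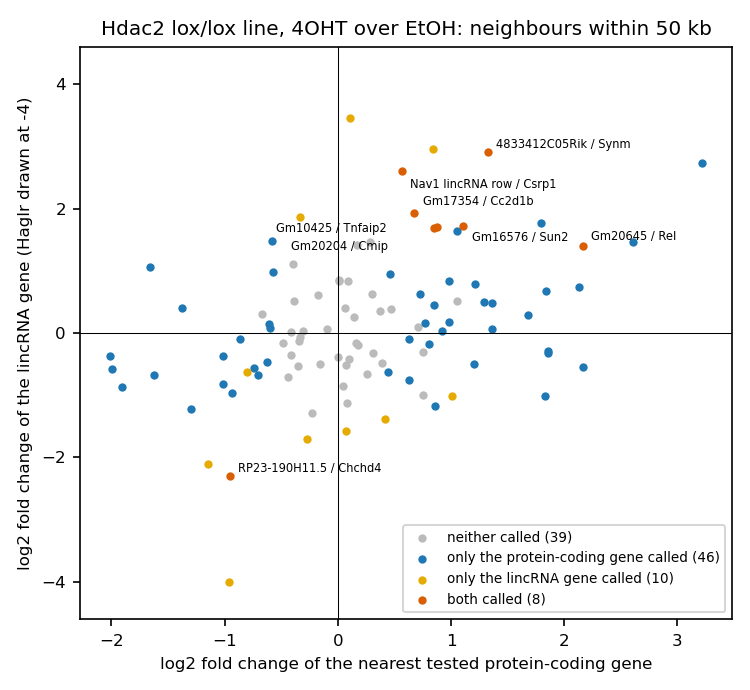
Log2 fold change of 4OHT over EtOH in the Hdac2 lox/lox line for 103 lincRNA genes (vertical axis) against their nearest tested protein-coding gene within 50000 bases (horizontal axis), coloured by which of the 2 was called. The 8 pairs with both called, which are labelled, lie in the quadrants where both genes move the same way.

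Overlap limits part of these values. Of the 124 genes, 34 overlap another row that has at least 0.1 times their level, 27 on the opposite strand and 7 on the same strand, and 6 of the 22 called genes are among them. The kit marks strand, but no source used here says whether the counting used it, so reads of overlapping genes on opposite strands cannot be told apart. 2010300F17Rik rose while Skap1, which covers its whole length on the other strand, averaged 2.44 ± 0.177 CPM in Hdac2 4OHT and 13.4 ± 4.40 CPM in Hdac2 EtOH (SD, n = 2 each) and fell (log2 fold change -2.45 ± 0.76 SE, adjusted p = 0.0408). Gm16938 overlaps Capn5 at 131 CPM on average, Gm10425 overlaps Exoc3l4 at 39.6 CPM and Gm17354 overlaps Cc2d1b at 21.8 CPM. Of these 3 partners only Cc2d1b passed the test, with a log2 fold change of 0.68. For 12 genes a transcript matched another M21 gene, on either strand, at 95% identity or more over at least 50% of its length. Of these 12, C330006A16Rik, Gm16092 and Yam1 were called. Positions of the matches were not compared, so a match can be an overlapping gene, as Fam84b is for 9930014A18Rik. The match of Gm16092, Gm16025, averaged 0.028 CPM.

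RefSeq promoter windows (GRCm38.p6, 250 bases before to 50 bases after a start) could be matched to 66 of the 124 genes. They held a median of 22.5 CpG dinucleotides and 61.0% G and C, beside 7 and 52.7% over all 32851 windows. Motif letters were counted on both strands of each window. AGATAA, bound by GATA factors, was in 2 of the 66 windows, beside 11.2% of all windows, and TGTGGT, bound by RUNX factors, in 9, beside 16.8%. CCACACCC, bound by KLF1, was in 3 windows, beside 3.6%, TGACTCA, bound by AP-1, in 0, beside 5.2%, and CCGGAAGT, bound by ETS factors, in 4, beside 3.9%. The reverse complement of TGTGGT can share bases with CCACACCC, as in the window of Gm16938. A match is a description of the letters and not of binding.

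The windows of Gm16576, which rose, and of Snhg18, which fell, are shown because each lies between 2 divergent genes, and those of 4933404O12Rik and C330006A16Rik because they are the other called genes of at least 2 CPM with a RefSeq window. Gm16576 was added after its values were seen. Each is printed in the direction of transcription, with the 50 bases from the RefSeq start in capitals. They are chr15:79742448-79742747 on the plus strand, chr15:32244613-32244912 on the minus strand, chr5:136918896-136919195 on the plus strand and chr2:26139494-26139793 on the minus strand. The start of Sun2 lies at base 89 of the Gm16576 window and the start of Sema5a at base 100 of the Snhg18 window. The C330006A16Rik window lies inside the table's row, whose own start is further upstream. The first 2 windows hold 38 and 31 CpG dinucleotides, and the others 11 and 14. None of the 5 motifs is in the first 3, and C330006A16Rik holds the reverse complement of TGTGGT at base 268.
Gm16576: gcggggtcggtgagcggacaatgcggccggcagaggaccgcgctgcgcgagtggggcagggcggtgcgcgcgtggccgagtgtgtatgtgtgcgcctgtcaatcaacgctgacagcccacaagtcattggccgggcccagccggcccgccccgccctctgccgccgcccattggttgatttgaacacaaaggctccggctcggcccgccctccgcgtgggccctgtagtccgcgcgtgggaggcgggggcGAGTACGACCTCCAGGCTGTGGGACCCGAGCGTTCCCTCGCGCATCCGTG
Snhg18: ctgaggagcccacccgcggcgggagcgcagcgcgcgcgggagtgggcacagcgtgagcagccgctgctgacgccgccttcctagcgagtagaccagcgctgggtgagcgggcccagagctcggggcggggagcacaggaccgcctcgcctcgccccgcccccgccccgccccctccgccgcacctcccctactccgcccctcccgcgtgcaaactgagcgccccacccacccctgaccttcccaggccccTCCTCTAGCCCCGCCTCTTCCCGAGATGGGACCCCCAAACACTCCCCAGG
4933404O12Rik: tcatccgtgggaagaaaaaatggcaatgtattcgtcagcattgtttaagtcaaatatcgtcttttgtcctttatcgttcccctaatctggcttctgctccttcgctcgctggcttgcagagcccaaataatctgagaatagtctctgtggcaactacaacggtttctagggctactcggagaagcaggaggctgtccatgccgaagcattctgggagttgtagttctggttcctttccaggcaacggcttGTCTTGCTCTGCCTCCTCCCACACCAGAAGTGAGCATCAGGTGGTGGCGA
C330006A16Rik: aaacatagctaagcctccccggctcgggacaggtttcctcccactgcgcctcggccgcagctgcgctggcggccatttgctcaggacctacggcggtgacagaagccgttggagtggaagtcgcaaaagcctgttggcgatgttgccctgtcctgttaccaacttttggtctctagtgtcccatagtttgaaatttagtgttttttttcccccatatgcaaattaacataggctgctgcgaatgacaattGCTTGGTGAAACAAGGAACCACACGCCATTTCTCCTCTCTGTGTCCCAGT

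In the Hdac1 lox/lox line none of the 124 lincRNA genes was called, and none of the 14179 genes tested was (0%). At an unadjusted p under 0.05 there were 13 lincRNA genes (10.5%), beside 6.68% of all genes, and DESeq2 and limma-voom also called 0 lincRNA genes, with 32 and 0 calls over all genes. The groups did not overlap for 40 of the 124 (32.3%), beside 31.2% of all genes. The median log2 fold change was -0.16 over the lincRNA genes and -0.02 over all genes, and 85 of the 124 were below 0.

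Among these 13, C330006A16Rik stood at 30.5 and 29.4 CPM in Hdac1 4OHT and at 40.5 and 37.3 CPM in Hdac1 EtOH, with no overlap (log2 fold change -0.38 ± 0.14 SE, adjusted p = 0.733). 4933404O12Rik stood at 30.9 and 32.5 CPM in Hdac1 4OHT and at 42.4 and 45.2 CPM in Hdac1 EtOH (-0.47 ± 0.19, adjusted p = 0.733). In both genes the Hdac1 difference had the sign seen in the Hdac2 line. Gm20748 stood at 5.97 and 6.15 CPM in Hdac1 4OHT and at 2.62 and 3.85 CPM in Hdac1 EtOH (0.90 ± 0.35, adjusted p = 0.733). 2010300F17Rik stood at 0.550 and 1.08 CPM in Hdac1 4OHT and at 0.261 ± 0.0161 CPM in Hdac1 EtOH (SD, n = 2; 1.64 ± 0.61, adjusted p = 0.733). It reached the level rule only through 4OHT libraries, so this difference is in part set by the rule. Of the 22 genes called in the Hdac2 line, 8 of the 12 that rose and 6 of the 10 that fell had the same sign in the Hdac1 line. Together these are 63.6%, beside 69% of the 5113 genes called in the Hdac2 line.

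The replicates of the Hdac1 line were further apart. The 2 libraries of a group were compared on log2 of CPM plus 0.5. They differed by more than 2-fold for 13 lincRNA genes (10.5%) in Hdac1 4OHT and 14 (11.3%) in Hdac1 EtOH, beside 5.26% and 8.42% of all genes. In Hdac2 4OHT it was 2 (1.61%) and in Hdac2 EtOH 3 (2.42%), beside 1.76% and 3.03% of all genes. The Nav1 lincRNA row stood at 19.4 and 8.37 CPM in Hdac1 4OHT and at 4.04 and 17.4 CPM in Hdac1 EtOH, so each group spanned much of the range of the other. For 1700020I14Rik the values were 226 and 143 CPM in Hdac1 4OHT and 134 and 263 CPM in Hdac1 EtOH. Early blood genes also differed within these groups, with sums of 265 to 609 CPM in Hdac1 4OHT and 401 to 1090 CPM in Hdac1 EtOH, and their part in the spread was not tested.

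**Figure D5:**
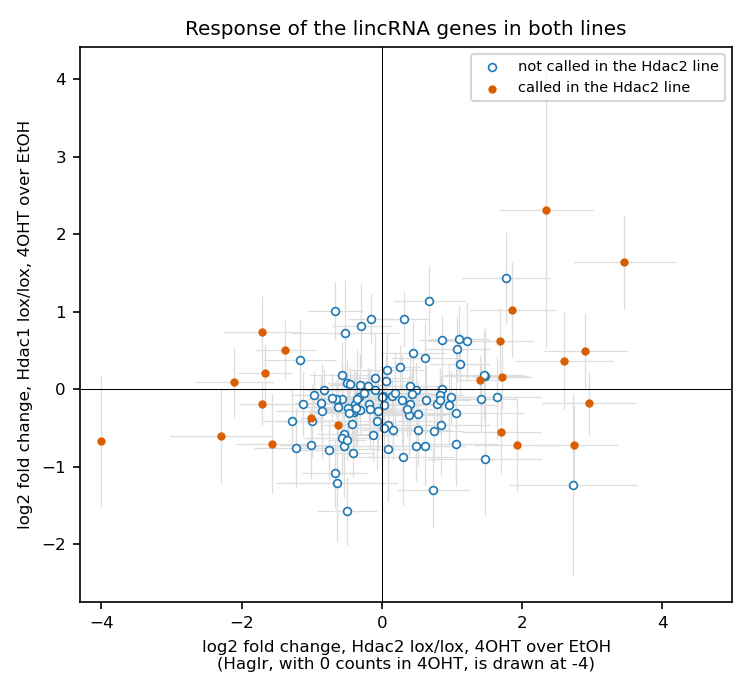
Log2 fold change of 4OHT over EtOH for the 124 lincRNA genes in the Hdac2 lox/lox line (horizontal axis) and the Hdac1 lox/lox line (vertical axis), with bars of 1 SE; filled circles were called in the Hdac2 line and none was called in the Hdac1 line. Haglr is drawn at the left edge, the Hdac1 value of Gm26834 rests on 1 count, and most points lie within 1 log2 unit of 0 on the vertical axis.

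The difference between the responses of the lines, the test of whether a gene responded otherwise in the Hdac2 line than in the Hdac1 line, passed for 0 of the 124 lincRNA genes and for 4 of all genes (0.0282%). At an unadjusted p under 0.05 there were 19 lincRNA genes (15.3%), beside 28% of all genes. DESeq2 called 3 lincRNA genes, Gm16092, Gm20204 and Yam1, and 1765 of all genes, while limma-voom called 0 lincRNA genes and 1 of all genes. A call in the Hdac2 line alone therefore does not show that a lincRNA gene responded differently in the lines. The largest such differences among the genes named above, as log2 fold change in the Hdac2 line minus that in the Hdac1 line, were 3.47 ± 0.80 SE for Gm16092 (adjusted p = 0.0804) and 3.15 ± 0.80 for Gm16938 (adjusted p = 0.0866), leaving aside Haglr with its 0 counts. For Snhg4 it was -1.52 ± 0.42 (adjusted p = 0.091), for Yam1 -1.87 ± 0.53 (adjusted p = 0.0955) and for Gm20204 2.26 ± 0.78 (adjusted p = 0.124). Over the 124 genes the 2 responses had a Pearson correlation of 0.258 and a Spearman correlation of 0.210, beside 0.243 and 0.284 over all genes, with no library shared between them but the same fit.

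The lines also differed with EtOH alone. Of the 124 lincRNA genes, 4 were higher and 5 lower in Hdac2 EtOH than in Hdac1 EtOH (7.26%), beside 9.33% of all genes (2.91% higher and 6.42% lower). Of these 9, 7 differed by at least 2-fold, beside 6.02% of all genes. At an unadjusted p under 0.05 there were 26, beside 33% of all genes. With upper quartile scaling 5 were higher and 4 lower, and with no scaling beyond library size 4 were higher and 8 lower. No call was left without any 1 library of the Hdac2 line or without the second Hdac1 EtOH library, and Yam1 alone was called when the 4 EtOH libraries were fitted by themselves. The 68 genes whose groups did not overlap (54.8%) compare with 60.1% of all genes. This comparison uses the same Hdac2 EtOH libraries as the 4OHT comparison, so the values of both are set side by side without a measure of their relation.

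Yam1 was higher in Hdac2 EtOH (2883 and 1917 CPM) than in Hdac1 EtOH (695 and 745 CPM), and this passed the test (1.74 ± 0.39, adjusted p = 0.0374). C330006A16Rik was at 64.9 and 67.3 CPM in Hdac2 EtOH and 40.5 and 37.3 CPM in Hdac1 EtOH (0.76 ± 0.14, adjusted p = 0.0284). 2410019O14Rik was at 3.63 and 2.77 CPM in Hdac2 EtOH and 0.819 and 0.300 CPM in Hdac1 EtOH (2.52 ± 0.53, adjusted p = 0.0336). In these 3 genes, which fell with 4OHT in the Hdac2 line, the Hdac2 EtOH libraries were the highest of all 8. AI662270, the other gene that was higher, was at 1.88 and 1.91 CPM in Hdac2 EtOH and 0.327 and 0.200 CPM in Hdac1 EtOH (2.81 ± 0.49, adjusted p = 0.0246), and its 4OHT comparison in the Hdac2 line gave -0.29.

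Gm20204 was lower in Hdac2 EtOH (9.59 and 14.6 CPM) than in Hdac1 EtOH (36.8 and 119 CPM), and this passed the test (-2.70 ± 0.58, adjusted p = 0.0341). Gm16092 was at 0.389 and 0.191 CPM in Hdac2 EtOH and 1.31 and 2.50 CPM in Hdac1 EtOH (-2.62 ± 0.61, adjusted p = 0.0414). Gm16938 had 2 counts in Hdac2 EtOH and 41 counts in Hdac1 EtOH, a ratio of 0.0722 (exact Poisson 95% interval 0.00846 to 0.278; adjusted p = 0.0234). Gm16938 reached the level rule only through libraries of the Hdac1 line, so this difference is in part set by the rule. These 3 genes, which rose with 4OHT in the Hdac2 line, were lowest in the Hdac2 EtOH libraries. 2700046A07Rik was at 2.14 and 1.62 CPM in Hdac2 EtOH and 5.18 and 6.30 CPM in Hdac1 EtOH (-1.59 ± 0.40, adjusted p = 0.0486), and Gm17435, which overlaps Med26 on the other strand, at 4.02 and 3.53 CPM in Hdac2 EtOH and 7.97 and 6.80 CPM in Hdac1 EtOH (-0.96 ± 0.24, adjusted p = 0.047). Neither was called in the 4OHT comparison of the Hdac2 line, with log2 fold changes of 0.75 and -0.19. Gm26834 had 9 counts in Hdac2 EtOH and 0 in Hdac1 EtOH, 4.44-fold higher against the floor of 3 counts over the group (adjusted p = 0.0587). The exact Poisson 95% interval of the ratio had a lower end of 2.92.

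The floxed gene and any other difference between the lines cannot be told apart in this comparison.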

How the data were processed

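Counts per gene of 8 RNA-seq libraries were used as deposited: whole numbers of reads, not normalized by the authors. Per the submitters' processing notes, which give no roles, the tools were edgeR 3.8.5 in R 3.1.0, SAMtools 0.1.19, Bowtie2 2.2.1 and bcl2fastq 2.17.1.14, with genome build mm10. Per the labels' protocols, 200 ng of total RNA went into a strand-specific Agilent kit with 15 amplification cycles. No source used here gives the counting program, annotation release or strand setting.

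Groups came from the sample titles. Genes were filtered with filterByExpr, which kept 99.9% of counts, scaled by TMM and fitted by edgeR 4.0.16 (R 4.3.3) with robust quasi-likelihood dispersion on all 8 libraries, which gives the 4 groups a common spread. Benjamini-Hochberg adjustment ran over all 14179 genes at 0.05. Standard errors were taken from the F statistic. DESeq2 1.42.0, limma 3.58.1 (voom), other scalings and filters, left-out libraries, single-line fits and replicate blocks were alternatives. Intervals and floors cover counting error only. Levels are CPM. Scripts were tested on simulated data.

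Named genes are the members of 6 role lists, the 8 highest and 8 lowest called genes with a mean of at least 2 CPM and groups apart in the Hdac2 line (5 and 5 in the other comparisons), the 10 with the highest mean, those at the edge of the level rule, and neighbours within 50000 bases. Genes outside this rule are marked as such. The lincRNA genes and all lists were chosen with earlier results of these data known. GENCODE M21 on GRCm38 gave newer names and transcripts, of which 116 of the 124 identifiers were found, 74 with identical coordinates and 19 with another symbol. Matching transcripts of other genes were searched on both strands with BLAST 2.17.0, without comparing positions. Sequences are from RefSeq.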

Additional observations from a re-analysis of the deposited data

How the results depend on the processing

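Of the 22 lincRNA genes called in the Hdac2 line, DESeq2 called 19 and limma-voom 18, and the Hdac2 line fitted alone called 21 of the 22. The count itself was 18 to 32 under other tests, scalings and filters and in that fit, and 8 among the 38 genes with 5 CPM or more in at least 2 libraries. Leaving out 1 library gave 0 to 30 calls, with 0 or 1 where the library was of the Hdac2 line. The lone library left in that group was then assumed to vary like the other groups, which include the more variable Hdac1 line. The main fit also gives all groups a common spread, and the cause of the lost calls was not tested. In the EtOH comparison with 9 calls, DESeq2 called 15, the EtOH libraries fitted alone 1 (Yam1), and leaving out 1 library gave 0 to 21. It gave 0 without any 1 library of the Hdac2 line or the second Hdac1 EtOH library, and 21 without the first Hdac1 EtOH library. For the difference between the lines, with 0 calls, DESeq2 called 3, no low-count filter 2 (Gm16092 and Haglr), and leaving out 1 library gave 0 to 11, with 11 without the first Hdac1 EtOH library. Of the neighbour pairs, 1 (Gm16576 and Sun2) had both genes called within 5000 bases, where 59 of the 103 pairs and 4 of the called lincRNA genes lie. Signs turned round, with 1 library left out, for 4 genes that had not passed: the log2 fold changes were -0.051 to 0.87 for Gm20748, -0.15 to 0.75 for Malat1, -2.05 to 0.11 for Mir17hg and -0.36 to 0.20 for Snhg12. For none of the changed counts was the cause tested.

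The replicate numbers of the titles were not taken to pair the libraries. Same-numbered libraries deviated together in the Hdac2 line over all genes (correlation of deviations 0.307) but hardly over the lincRNA genes (0.0842). In the Hdac1 line they deviated in opposite directions (-0.734 over all genes and -0.501 over the lincRNA genes). With the number as a replicate block, 0 lincRNA genes were called in the Hdac2 line (29 at an unadjusted p under 0.05), 0 in the Hdac1 line and 8 between the EtOH groups. With the Hdac1 numbers crossed, an alternative added after seeing the data, there were 43, 3 and, for the difference between the lines, 24 calls. At these depths, a gene at the median level of 1.67 CPM rests on few counts per library, and the median SE of a log2 fold change in the Hdac2 line was 0.46 for the lincRNA genes and 0.26 for all genes.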

Other observations

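The annotation of these genes has changed since the deposited table was made. Of the 124 genes, M21 still lists 73 as lincRNA, 17 as antisense, 11 as sharing a bidirectional promoter, 9 as processed transcripts and 2 as protein-coding, and 8 identifiers were not found there. Of the 22 genes called in the Hdac2 line, 14 were among the 73, 1 among the antisense genes and 2 among those with a bidirectional promoter. The lincRNA biotype of the whole table had 160 genes tested, of which 25 (15.6%) were called in that comparison. These were taken by the low-count filter without the level rule, and with the X chromosome and the imprinted rows. The antisense biotype had 8 of 88 called (9.09%), processed transcripts 25 of 118 (21.2%) and pseudogenes 310 of 1136 (27.3%). No test between these biotypes was made.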
